A study of Mus musculus with 9 samples.

Results

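The circadian clock genes Clock, Per1, Per2, Per3, Cry1, Cry2, Nr1d1, Nr1d2, Dbp and Tef were examined across mouse embryonic stem cells and neonatal and adult cardiomyocytes. Every probe annotated to these 10 symbols was taken, which gave 20 of the 45281 probes on the array. Of these, 14 passed the detection filter and represented 8 of the 10 genes among the 10800 genes tested. Per3 and Cry1 had no probe that passed. Biotin-labelled cRNA made from total RNA was hybridised to Illumina bead arrays, 9 in all, with 3 in each group. The mES group was undifferentiated embryonic stem cells with the source name TBV2. The CMp group was purified cardiomyocytes, the contractile cells of the heart, from the hearts of mice 1 day old, and the CMa group was purified cardiomyocytes from the left ventricle at 2 months. The labels give no genotype or strain, state that no treatment was applied and describe the cells as cultured. They name no hour of collection, no light schedule, no time in culture and no animals, so the phase of the clock in each sample is unknown. CMp and CMa differ in age and in the region of the heart at once, and these cannot be told apart. Nothing in the labels says that the arrays of a group came from separate animals or cultures, so the p-values measure only the spread between these samples.

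The mammalian clock is a feedback loop of transcription and translation. The proteins CLOCK and BMAL1, the latter encoded by Arntl, bind E-boxes as a pair and switch on the Per and Cry genes, whose products gather and inhibit that pair. The same pair switches on Nr1d1 and Nr1d2, which encode the repressors REV-ERB alpha and beta, and these compete with the ROR activators at ROR elements, including those of Arntl. It also drives Dbp and Tef, transcription factors of the PAR bZIP family that bind D-boxes and pass the rhythm on to other genes. In the adult heart many of these transcripts rise and fall over the day, and the cardiomyocyte clock is known for its effect on metabolic and ion channel genes. Undifferentiated embryonic stem cells are known to lack a running daily oscillation, which appears as they differentiate.

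The promoters of the members were searched for short exact motifs of this loop close to the start of transcription. RefSeq promoter sequences of the build GRCm38.p6 matched 9 of the 10 members, with 13 start sites in all. Per2 had no matching sequence and was not searched. The 250 bases before each start were searched on both strands. The canonical E-box CACGTG lay in 4 of the 13 windows, those of Cry1, of 1 start site of Per1 and of both start sites of Tef, and in 6.02% of all 32851 windows. A D-box, searched as TTATGTAA, TTACATAA or TTACGTAA, lay in 1 window, that of Per3, which held it at 2 places, and in 0.931% of all windows. The ROR element core AGGTCA, or TGACCT on the other strand, is a half-site and was searched without flanking bases. It lay in 3 of 13 windows, for Per1, Nr1d2 and 1 of the 3 start sites of Clock, and in 14% of all windows. The cyclic AMP response element TGACGTCA lay in none of the 13 and in 1.55% of all windows. The windows of Dbp, Nr1d1 and Cry2 held none of these exact strings. Other forms of the elements and sites farther from the start were not searched, so a window without a match does not show that a gene lacks them. A match is a description of the letters, not evidence of a bound site. The 5 windows with an E-box or a D-box are shown 5′ to 3′ in lower case, with every searched motif in capitals.
Per1 first start site, E-box 166 and ROR core 137 bases before the start, chr11:69098699-69098948, plus strand: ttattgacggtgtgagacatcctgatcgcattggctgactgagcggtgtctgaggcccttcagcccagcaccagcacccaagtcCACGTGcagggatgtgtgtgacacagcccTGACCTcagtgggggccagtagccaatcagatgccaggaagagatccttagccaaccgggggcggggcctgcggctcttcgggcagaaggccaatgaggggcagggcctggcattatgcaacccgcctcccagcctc
Cry1, E-box 60 bases before the start, chr10:85185055-85185304, minus strand: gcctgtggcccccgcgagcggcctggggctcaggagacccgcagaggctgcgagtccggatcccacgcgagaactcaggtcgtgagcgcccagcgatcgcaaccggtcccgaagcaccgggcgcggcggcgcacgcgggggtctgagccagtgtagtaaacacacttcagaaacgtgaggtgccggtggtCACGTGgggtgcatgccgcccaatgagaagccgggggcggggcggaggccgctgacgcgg
Tef first start site, E-box 127 bases before the start, chr15:81802423-81802672, plus strand: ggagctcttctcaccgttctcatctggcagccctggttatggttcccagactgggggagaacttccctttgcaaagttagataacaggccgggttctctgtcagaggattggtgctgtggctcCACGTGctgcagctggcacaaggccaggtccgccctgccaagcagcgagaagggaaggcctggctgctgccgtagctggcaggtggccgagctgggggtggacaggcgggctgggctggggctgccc
Tef second start site, E-box 138 bases before the start, chr15:81811164-81811413, plus strand: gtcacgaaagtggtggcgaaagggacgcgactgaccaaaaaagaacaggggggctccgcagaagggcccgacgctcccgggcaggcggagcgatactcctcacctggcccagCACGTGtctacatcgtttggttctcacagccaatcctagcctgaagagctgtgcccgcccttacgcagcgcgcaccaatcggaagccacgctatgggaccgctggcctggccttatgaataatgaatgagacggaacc
Per3, D-boxes 205 and 158 bases before the start, chr4:151044666-151044915, minus strand: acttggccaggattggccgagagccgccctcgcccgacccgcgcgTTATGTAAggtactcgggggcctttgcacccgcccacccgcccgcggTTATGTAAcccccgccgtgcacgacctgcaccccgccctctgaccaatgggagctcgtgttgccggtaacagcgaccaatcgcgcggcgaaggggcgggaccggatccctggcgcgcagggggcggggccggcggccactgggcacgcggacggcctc

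Between 13781 and 17946 probes were detected per array (30.4% to 39.6%), the CMa arrays having the fewest, and the number of arrays limits the precision. One array stood apart: CMp 1 correlated with the other CMp arrays at r = 0.964 to 0.965 over all genes tested, against 0.995 between those. Results on members whose call or direction depends on it are given with and without it. Markers of the labelled cell types were present, with all 7 cardiomyocyte markers detected on every CMp and CMa array and all 7 pluripotency markers on every mES array. Pluripotency markers were not all absent from the heart cells, where 2 of 7 in CMp and 1 of 7 in CMa were detected on every array. Each level is a background-corrected, quantile-normalized log2 intensity and belongs to its own probe, so levels of different probes are not set against each other. Where several probes of a gene were kept, the brightest was tested. Changes are log2 differences ± SE from limma, with p-values adjusted by the Benjamini-Hochberg method over all 10800 genes and a gene called at an adjusted p under 0.05. The comparisons of CMp and of CMa with mES share the mES arrays.

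Most of the tested members stood higher in the cardiomyocyte samples than in stem cells. Of 8 members tested, 6 were called in CMp against mES, all of them higher, while 74.1% of all genes tested were called and 35.4% were called higher. In CMa against mES 6 were again called, all higher, against 76.9% of all genes called and 36.7% called higher. The median log2 change of the members was 1.55 in CMp and 1.75 in CMa, beside -0.09 and -0.07 over all genes. Between the ages 4 of 8 members were called, with Dbp and Tef higher in CMa and Per1 and Per2 lower, where 52.2% of all genes were called, 26.3% higher and 25.8% lower. The median of the members was 0.13 there, beside 0.01 over all genes. By the F-test of the same fit 7 of 8 members differed among the 3 groups, as did 87.8% of all genes, and Cry2 was the exception. The same 6, 6 and 4 members were called without background correction and in the authors' matrix, with smaller changes. The members' counts in either direction were thus close to the background, except that the calls against mES all ran upward.

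**Figure D1:**
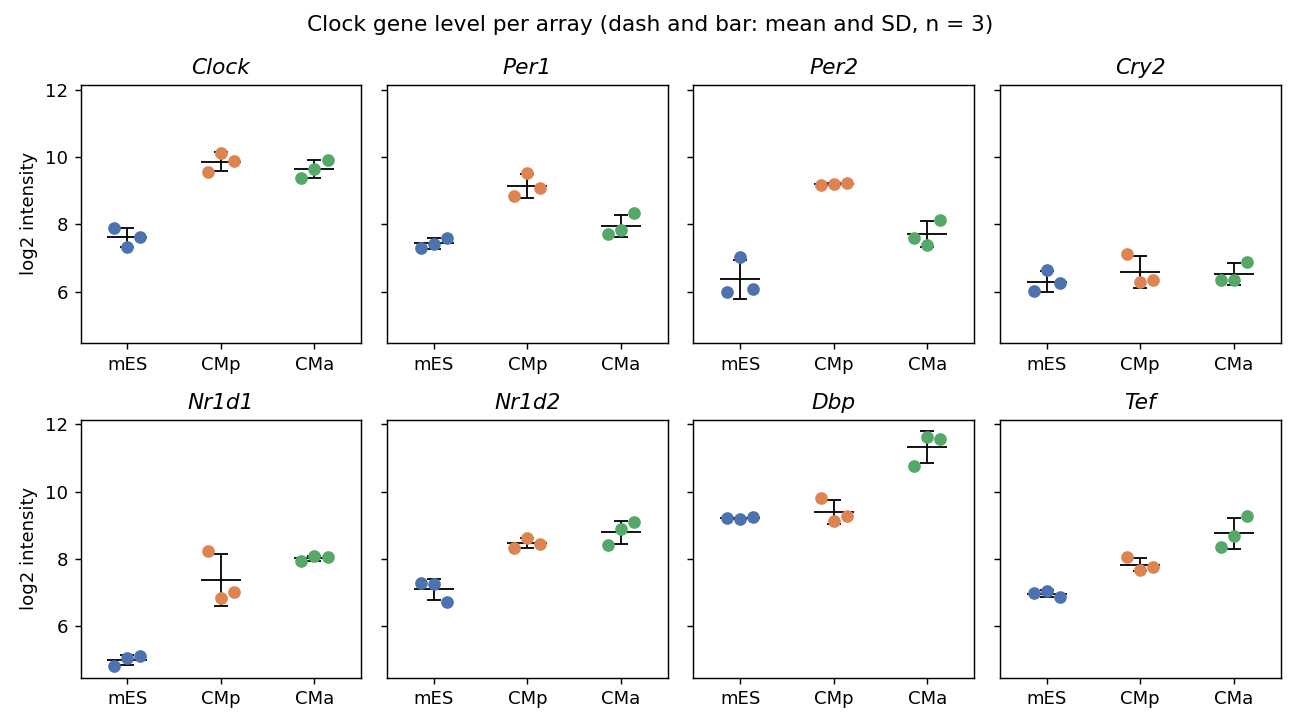
Log2 intensity of the tested probe of each of the 8 measured clock genes, with 1 point per array and a bar at the mean of each group of 3. Per1 and Per2 are highest in CMp, Dbp and Tef are highest in CMa, and the 3 groups of Cry2 overlap.

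Clock, the only activator among the members, encodes the DNA-binding partner of BMAL1. Its level was 7.89, 7.31 and 7.63 in mES 1, 2 and 3, 9.56, 10.13 and 9.87 in the CMp arrays, and 9.36, 9.65 and 9.91 in the CMa arrays. Every heart array lay above every mES array, and the CMp and CMa arrays overlapped. Clock was 4.73-fold higher in CMp than in mES (2.24 ± 0.22, adjusted p = 3.78e-06, limma) and 4.09-fold higher in CMa (2.03 ± 0.22, adjusted p = 6.81e-06). The CMa minus CMp difference was -0.21 ± 0.22, with a 95% confidence interval of -0.69 to 0.27 (adjusted p = 0.45). A second, dimmer kept probe of Clock gave another picture between the ages. It read 5.77, 4.99 and 4.89 in mES, where only mES 1 detected it. In CMp it read 6.13, 6.07 and 5.75, detected on all 3 arrays, and in CMa 4.41, 4.53 and 4.93, detected on none. That probe was at least 1.41-fold lower in CMa than in CMp (adjusted p = 0.00152 over all kept probes), and averaging both probes gave a change of -0.78 (adjusted p = 0.00955). Against mES the dim probe changed by 0.77 in CMp (adjusted p = 0.0197) and by -0.59 in CMa. The CMa value was not called (adjusted p = 0.0571) and ran opposite to the bright probe, but only mES 1 detected the dim probe in those groups. Whether Clock differs between the ages therefore depended on the probe.

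Arntl, the partner of Clock, did not follow it. Its level was 7.51, 7.33 and 7.52 in mES, 7.23, 7.19 and 7.26 in CMp, and 7.74, 7.46 and 7.01 in CMa. The CMp arrays lay together below the mES arrays, and the CMa arrays spanned both. No difference was called, with -0.23 ± 0.19 for CMp minus mES (adjusted p = 0.297), -0.05 for CMa minus mES (adjusted p = 0.825) and 0.18 ± 0.19 for CMa minus CMp (adjusted p = 0.465). Npas2, which encodes a paralog of CLOCK, had 1 probe, which no array detected.

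The period genes were highest in neonatal cardiomyocytes. Per2, whose product joins with cryptochromes to inhibit CLOCK and BMAL1, read 6.0, 7.04 and 6.07 in mES, 9.18, 9.21 and 9.22 in CMp, and 7.59, 7.39 and 8.13 in CMa. The 3 groups did not overlap, and the CMp arrays lay within a few hundredths of each other (SD 0.02). Per2 was 7.12-fold higher in CMp than in mES (2.83 ± 0.28, adjusted p = 4.43e-06) and 2.52-fold higher in CMa than in mES (1.33 ± 0.28, adjusted p = 0.00117). Adult cells held 2.83-fold less of it than neonatal cells (-1.50 ± 0.28, 95% confidence interval -2.12 to -0.88, adjusted p = 0.0011). A second Per2 probe moved by -1.53 between the ages (adjusted p = 0.00231 over all kept probes), close to the first. Its SD in CMp was 0.19, and its mES and CMa arrays overlapped (CMa minus mES 1.00, adjusted p = 0.0127 over all kept probes). When arrays were scaled to a common median instead of quantile normalized, the median of all genes moved to -0.59, -0.79 and -0.20 in CMp against mES, CMa against mES and between the ages. Per2 in CMa against mES was then not called (0.45, or 1.24 relative to that median, adjusted p = 0.157).

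Per1, the other period gene measured well and one known to respond quickly to hormones and stimuli, read 7.29, 7.40 and 7.59 in mES, 8.82, 9.52 and 9.09 in CMp, and 7.71, 7.82 and 8.33 in CMa. CMp stood above both other groups on every array. Per1 was 3.29-fold higher in CMp than in mES (1.72 ± 0.22, adjusted p = 3.79e-05) and 2.29-fold lower in CMa than in CMp (-1.19 ± 0.22, 95% confidence interval -1.69 to -0.70, adjusted p = 0.0011). In CMa against mES the arrays did not overlap, yet the change of 0.52 ± 0.22 narrowly missed the threshold (adjusted p = 0.0516), and it turned to -0.46 with scaling to a common median, or 0.33 relative to all genes. Leaving out CMp 1, CMp 2 or CMa 1 in turn brought that change under the threshold (adjusted p = 0.0306, 0.0379 and 0.0341). A dimmer Per1 probe of the same transcript record, also detected on all 9 arrays, had overlapping mES and CMa arrays (0.45, adjusted p = 0.0889 over all kept probes). That dimmer probe changed by 1.74 in CMp against mES and by -1.29 between the ages, both called. Another Per1 probe, which the array annotation ties to a different transcript record, was detected on the 3 CMp arrays and nowhere else. It read 6.66, 6.25 and 6.50 there and 4.31 to 4.53 on the other arrays. That probe was at least 2.77-fold higher in CMp than in mES (adjusted p = 1.5e-06 over all kept probes) and at least 1.97-fold higher than in CMa (adjusted p = 5.66e-06).

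Cry2, a cryptochrome that inhibits CLOCK and BMAL1, was the measured member with no called difference. It read 6.0, 6.63 and 6.26 in mES, 7.13, 6.28 and 6.35 in CMp, and 6.35, 6.33 and 6.89 in CMa, with overlap among all 3 groups. The change was 0.29 in CMp against mES (95% confidence interval -0.30 to 0.88, adjusted p = 0.341), 0.23 in CMa against mES (-0.36 to 0.82, adjusted p = 0.449) and -0.06 in CMa against CMp (-0.65 to 0.53, adjusted p = 0.868). These intervals leave room for a change of nearly 1 log2 unit against mES. Cry1 was detected on no array, with levels of 4.20 to 4.51. Per3 was detected on CMp 1 alone by 1 of its 2 probes, at 5.19, with 4.82 to 5.10 on the other CMp arrays and CMa 2 and 3, and 4.33 to 4.38 in mES and CMa 1. For these 2 genes the values give only an upper bound, and with no detection filter Per3 moved by 0.60 in CMp against mES (adjusted p = 0.0288). That change belongs to the probe detected on CMp 1. The other Per3 probe, detected on no array, ran the opposite way, with means of 4.70 in mES and 4.51 in CMp.

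**Figure D2:**
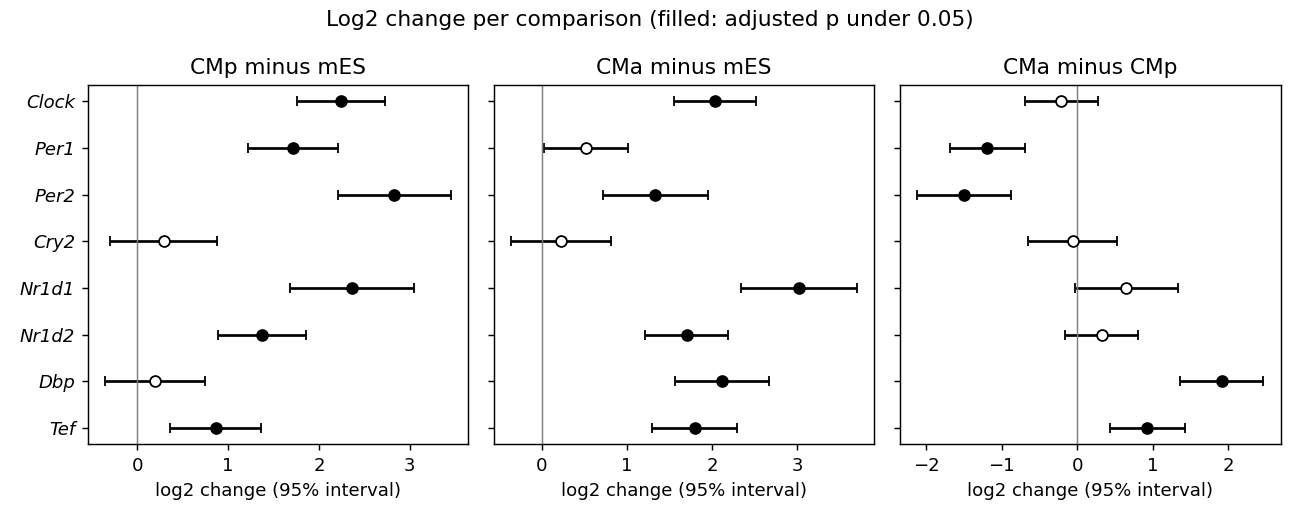
Log2 change of the 8 tested clock genes in each of the 3 comparisons, with the 95% confidence interval from limma and filled points where the adjusted p was under 0.05. The changes against mES lie at or above 0, and the CMa minus CMp changes run from -1.50 for Per2 to 1.92 for Dbp.

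Both REV-ERB genes were higher in the heart cells. Nr1d1 was near background in stem cells, at 4.82, 5.07 and 5.12, and was detected on 1 of the 3 mES arrays. It read 8.25, 6.84 and 7.02 in CMp and 7.93, 8.08 and 8.05 in CMa. CMp 1 lay above all CMa arrays and the other CMp arrays below them. Nr1d1 was 5.16-fold higher in CMp (2.37 ± 0.31, adjusted p = 3.93e-05) and 8.09-fold higher in CMa than in mES (3.02 ± 0.31, adjusted p = 4.75e-06). The size of these changes rests on the near-background stem cell values. Without background correction they were 1.08 and 1.5 on the log2 scale, and in the authors' matrix 0.67 and 0.97, each still called. CMa minus CMp was 0.65 ± 0.31 (95% confidence interval -0.03 to 1.33, adjusted p = 0.102) with all arrays and 1.11 (adjusted p = 0.000215) without CMp 1, so that 1 array decides the call.

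Nr1d2 read 7.29, 7.26 and 6.73 in mES, 8.33, 8.63 and 8.46 in CMp, and 8.41, 8.88 and 9.09 in CMa. All heart arrays lay above all mES arrays, and the ages overlapped. It was 2.59-fold higher in CMp (1.37 ± 0.22, adjusted p = 0.000179) and 3.25-fold higher in CMa (1.70 ± 0.22, adjusted p = 3.08e-05). Between the ages the difference was 0.32 ± 0.22 (95% confidence interval -0.16 to 0.81, adjusted p = 0.243). A second Nr1d2 probe, detected on 2 mES, 1 CMp and 1 CMa array, changed by -0.01, 0.04 and 0.04 in the 3 comparisons and was not called. Rora, which encodes an activator at the elements that REV-ERB proteins repress, was 6.79-fold higher in CMp than in mES (2.76, adjusted p = 3.95e-07) and changed by 2.54 in CMa (adjusted p = 5.72e-07). Its CMa minus CMp value was -0.22 (adjusted p = 0.391).

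The PAR bZIP factors were highest in adult cardiomyocytes. Dbp read 9.20, 9.18 and 9.23 in mES, 9.81, 9.13 and 9.26 in CMp, and 10.77, 11.62 and 11.56 in CMa. Stem and neonatal cells overlapped, and each CMa array lay about 1 log2 unit or more above every other array. Dbp was 3.77-fold higher in CMa than in CMp (1.92 ± 0.25, 95% confidence interval 1.36 to 2.47, adjusted p = 9.66e-05) and 4.32-fold higher than in mES (2.11 ± 0.25, adjusted p = 1.5e-05). CMp minus mES was 0.20 ± 0.25 (95% confidence interval -0.36 to 0.75, adjusted p = 0.493), and its sign turned without CMp 1 (-0.01) and with scaling to a common median (-0.57, or 0.02 relative to all genes). In the scanner signals before any processing Dbp stood at 966 to 1015 in mES, 527 to 856 in CMp and 1401 to 2566 in CMa, so that CMa was highest there too and CMp was lowest.

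Tef was lowest in stem cells, intermediate in neonatal and highest in adult cardiomyocytes. It read 6.99, 7.06 and 6.86 in mES, 8.05, 7.68 and 7.76 in CMp, and 8.34, 8.68 and 9.27 in CMa, with no overlap between groups. The gene was 1.82-fold higher in CMp than in mES (0.86 ± 0.23, adjusted p = 0.00516), 3.46-fold higher in CMa than in mES (1.79 ± 0.23, adjusted p = 2.6e-05) and 1.91-fold higher in CMa than in CMp (0.93 ± 0.23, adjusted p = 0.00546). With scaling to a common median the CMp minus mES change (0.28, or 0.87 relative to all genes, adjusted p = 0.309) and the CMa minus CMp change (0.59, or 0.78 relative to all genes, adjusted p = 0.0655) were not called. A second Tef probe was detected on the 3 CMa arrays only, at 7.88, 7.51 and 7.0, against 4.26 to 4.82 elsewhere. It was at least 5.53-fold higher in CMa than in mES (adjusted p = 5.26e-07 over all kept probes) and at least 5.64-fold higher than in CMp (adjusted p = 6.13e-06). In the authors' deposited normalized values the 2 Tef probes hold each other's values, as do the 2 Cry2 probes, so which Tef probe carries the adult signal differs between the deposited sources.

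**Figure D3:**
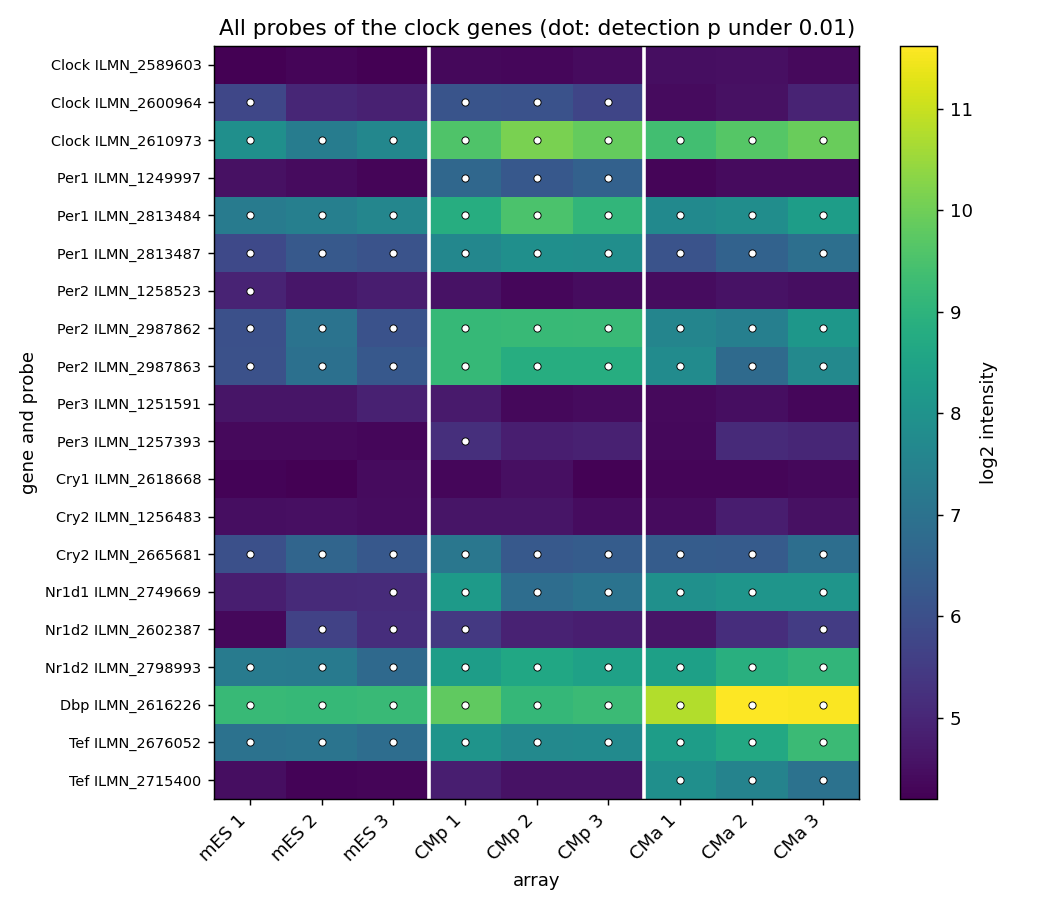
Log2 intensity of all 20 probes of the 10 clock genes on each of the 9 arrays, with filled points where the detection p was under 0.01. The probes of Per1 and Per2 that were detected in heart cells are highest in CMp, both Tef probes are highest in CMa, and the probes of Clock and of Nr1d2 differ from each other in CMa.

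Over the 14 kept probes, 10 were called in CMp against mES, all higher, and 8 in CMa against mES, all higher, beside 32.4% and 33.2% of all kept probes called higher. Between the ages 9 were called, 3 higher and 6 lower in CMa, beside 23.2% and 23.8% of all kept probes. The 6 lower probes were the 3 of Per1, both kept probes of Per2 and the dim probe of Clock, and the 3 higher ones were those of Dbp and Tef. The Per1 probe of the different transcript record and the dim Clock probe passed the detection filter only through CMp. The second Tef probe passed it only through CMa. The filter thus favoured the direction of their calls, against mES as well, and these calls add no separate support.

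The spread within groups was not the same for every member. The pooled residual SD of Nr1d1 was 0.45 log2 units, at the 89.7th percentile of all genes tested, that of Per2 lay at the 83.5th, and those of Clock, Nr1d2 and Per1 between the 56.5th and 59.9th. Within CMa the members lay on one side of the group mean on CMa 3 and on CMa 1. CMa 3 lay above its group mean for 8 of 8 members (median deviation 0.33), beside 53.6% of all genes, and CMa 1 for 0 of 8 (median -0.26), beside 46% of all genes. CMa 2 lay above it for 4 of 8, beside 49.2% of all genes. CMp 1, 2 and 3 lay above their group mean for 4, 4 and 2 of 8 members, beside 42.6%, 55.5% and 55.6% of all genes. The members split on CMp 1, with Nr1d1 (0.88), Cry2 (0.54), Dbp (0.41) and Tef (0.22) above the mean and the other members below. Those 4 all lay below it on CMp 2 and CMp 3. Collection times were not given, and their part in this spread was not tested.

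Further parts of the loop ran in both directions. Of 24 other clock genes listed, 13 were tested. In CMp against mES 6 were higher, 5 lower and 2 not called (median -0.01), and in CMa against mES 4 were higher, 5 lower and 4 not called (median -0.48). Over all genes 74.1% and 76.9% were called in these comparisons, 35.4% and 36.7% of all genes being higher. With scaling to a common median 3 were higher and 8 lower in CMp, and 3 higher and 9 lower in CMa. Leaving out CMp 1 gave 10 instead of 11 called in CMp against mES. Usp2, which encodes a deubiquitinase of clock proteins, was 8.04-fold higher in CMp and 13.2-fold higher in CMa than in mES. Bhlhe40, an E-box repressor also called DEC1, was 2.19 higher on the log2 scale in CMp and 1.52 in CMa. Timeless, Nono and Wdr5, whose products bind clock proteins and also serve replication, RNA processing or chromatin, were lower in both heart groups. Their changes were -1.93, -1.56 and -1.96 in CMp and -1.76, -1.60 and -2.35 in CMa. Ciart, an E-box repressor also called CHRONO, changed by -1.17 in CMp (adjusted p = 0.00814) and -1.21 in CMa. Usp2, Bhlhe40, Timeless, Nono, Wdr5, Ciart and Rora were chosen after their values were seen.

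Between the ages 2 of the 13 other clock genes were higher in CMa, 3 lower and 8 not called (median -0.04). Over all genes 52.2% were called, 26.3% higher and 25.8% lower. Without CMp 2 the called number fell from 5 to 3, and without CMp 1 to 4. Scaling to a common median gave 1 higher and 5 lower. Csnk1d, encoding a casein kinase that phosphorylates PER proteins, was the clearest. It read 10.40, 10.66 and 10.68 in CMp and 8.35, 8.57 and 8.62 in CMa, with mES at 10.20 to 10.22. Csnk1d was 4.19-fold lower in CMa than in CMp (-2.07 ± 0.15, adjusted p = 1.79e-06). The casein kinase gene Csnk1e, named after its values were seen, changed by -0.47 and was not called (adjusted p = 0.117). Noct, the rhythmic gene of nocturnin, read 9.86, 10.03 and 9.95 in CMp and 9.37, 7.78 and 7.65 in CMa, so that CMa 1 lay well above its group. Noct was 3.2-fold lower in CMa (-1.68 ± 0.37, adjusted p = 0.00303).

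Clock output genes of the heart, known as targets of the clock or of its PAR bZIP and KLF15 branches, mostly stood higher in CMa. Of 11 listed, 6 were tested, and in CMa against CMp 4 were higher, 1 lower and 1 not called (median 1.22). Over all genes 26.3% were higher and 25.8% lower. Kcnip2, which encodes a subunit of the cardiac transient outward potassium channel, read 6.17, 4.95 and 5.15 in CMp and 9.04, 8.66 and 7.74 in CMa, an 8.3-fold difference (3.05 ± 0.37, adjusted p = 5.43e-05). Dgat2, an enzyme of triglyceride synthesis, was 4.88-fold higher (2.29 ± 0.19, adjusted p = 3.52e-06) and Nampt, the enzyme of NAD salvage, changed by 1.66 ± 0.22 (adjusted p = 0.000109). Acot1, an acyl-CoA thioesterase, went against the list (-1.97 ± 0.25, adjusted p = 7.33e-05). In CMp against mES 4 of the 6 were higher, 1 lower and 1 not called (median 1.83), and in CMa against mES 4 were higher and 2 not called (median 3.31). The shares of all genes higher there were 35.4% and 36.7%.

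Period genes are known to respond to acute stimuli as well as to the clock, so genes of such responses were set beside them. Of 16 immediate early and stress genes tested, 14 were lower in CMa than in CMp, 0 were higher and 2, Jun and Dusp1, were not called (median -1.99). Over all genes 25.8% were lower and 26.3% higher. Egr3 was detected on all CMp arrays and on no CMa array and was at least 23.6-fold lower (-4.97 ± 0.21, adjusted p = 4.07e-08), and Egr2 was at least 14.2-fold lower (-4.75 ± 0.22, adjusted p = 7.44e-08). Fosb, a subunit of AP-1, fell by 4.50 ± 0.50 on the log2 scale and the heat shock gene Hspa1b by 2.81 ± 0.42. Socs3, an inhibitor of cytokine signalling, changed by -2.79 ± 0.33. Against mES, 15 of 16 were higher in CMp (median 4.06) and 13 in CMa (median 1.96), beside 35.4% and 36.7% of all genes. Socs3 was lower in both, and Egr2 and Ier2 were not called in CMa. The 13 include Egr3, which no mES or CMa array detected. Egr2, Egr3 and Ier2 were detected on the CMp arrays alone and passed the detection filter only through that group. The filter thus favoured their direction in both comparisons with CMp, and their part in these counts adds no separate support. Jun, Dusp1 and Ier2 were named after their values were seen. The summed linear level of the 16 genes was 6454 to 8916 in mES, 68161 to 87162 in CMp and 23720 to 26992 in CMa. The group means of Per1 and Per2 had the same order, though Per1 in CMa against mES was not called. Sums of the other clock genes and of the fibroblast, endothelial, smooth muscle and pericyte, leukocyte and erythroid markers had that order too. The part of these responses in the Per1 and Per2 differences was not tested.

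Glucocorticoids are another known inducer of Per1, and genes of that response gave a mixed picture. In CMa against CMp 3 of 5 were lower, 0 higher and 2 not called (median -0.40), beside 25.8% of all genes lower and 26.3% higher. Sgk1, a kinase gene of that response, changed by -2.59 ± 0.24 (adjusted p = 9.07e-06) and Fkbp5, encoding a receptor cochaperone, by -1.30 ± 0.38 (adjusted p = 0.0142) with overlapping arrays. In CMp against mES 2 were higher, 1 lower and 2 not called (median 0.04), and in CMa against mES 2 were higher and 3 lower (median -0.40). The shares of all genes higher there were 35.4% and 36.7%.

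**Figure D4:**
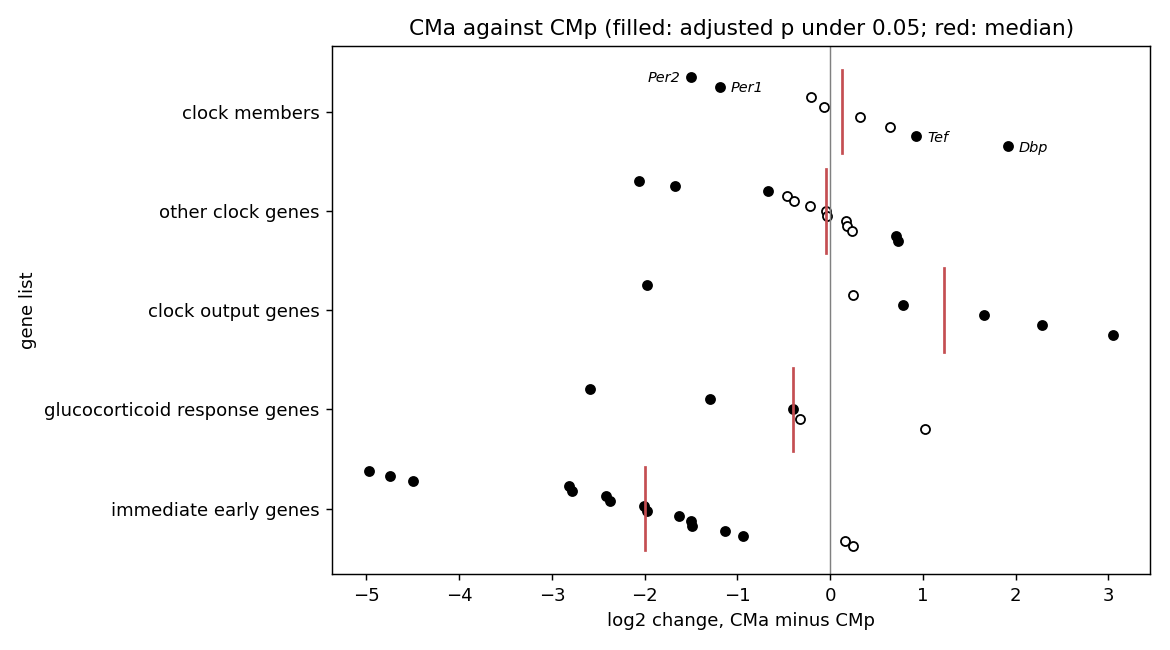
Log2 change in CMa against CMp for each tested gene of 5 lists, filled where the adjusted p was under 0.05, with a red line at the list median. The clock members spread to both sides of 0, the clock output genes lie mostly to the right and the immediate early genes mostly to the left.

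Markers of other heart cells also differed between the ages, where 25.8% of all genes were lower in CMa and 26.3% higher. Fibroblast markers were lower in CMa than in CMp for 7 of 7 tested, with a summed linear level of 17350 to 22703 in CMp and 4571 to 5855 in CMa. All 6 endothelial markers were lower (12482 to 21872 against 4197 to 5942), as were 4 of 4 erythroid (92058 to 102204 against 8699 to 17172) and 3 of 4 leukocyte (673 to 1104 against 227 to 475) markers. Of 6 smooth muscle and pericyte markers 2 were lower, Acta2 (14.84 against 12.30 on the log2 scale) and Tagln, and 4 were not called, so the fall of their sum was carried by Acta2. Cardiomyocyte markers summed to 135567 to 154186 in CMp and 133034 to 171255 in CMa, with 3 of 7 higher in CMa. In mES none of the 7 fibroblast and 4 leukocyte markers was detected. The fibroblast marker Col1a2 and the leukocyte marker Adgre1 were detected on the CMp arrays alone and passed the detection filter only through them. The fibroblast sum was 144 to 153 in mES and the erythroid sum 82 to 96, below both heart groups. The part of these other cells in the members' changes against mES was not tested. Nor was their part in the Per1, Per2, Dbp and Tef differences between the ages. In such bulk samples fewer cells of a type and less RNA per cell cannot be told apart.

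The genes whose levels ran most like each member over the 9 arrays were ranked among all 10799 others by Pearson correlation, which here mostly follows the 3 group means. Dbp ran closest to Fgf7 (r = 0.994), Phkb (0.989) and Lmod2 (0.988), and Tef to Fign (0.990), Hint2 (0.983) and Atg9a (0.983). Per1 was nearest to Ski (0.992), Bmp1 (0.990) and Tlnrd1 (0.989), and Per2 to Epc1 (0.986), Alg5 (0.985) and Lmo4 (0.981). For Clock they were Spag9 (0.997), Ahnak (0.996) and Auts2 (0.995), for Nr1d1 Rrad (0.996), Cpq (0.994) and Klhl40 (0.993), and for Nr1d2 Pheta1 (0.985), Col8a1 (0.983) and Uba7 (0.979). Cry2, which did not separate the groups, reached 0.865 with Tbc1d20, 0.832 with Gpc4 and 0.830 with Sclt1. Among the members themselves Per1 and Per2 correlated at 0.924 and Dbp and Tef at 0.899, whereas Dbp and Per1 were at -0.13.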

How the data were processed

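The 9 arrays were grouped by the labels as mES, CMp and CMa, with 3 in each. Per the file headers, the deposited scanner export lists for each probe and array a mean signal intensity, linear and not normalized, together with a detection p-value. A series matrix deposited by the authors lists normalized log2 values. The submitters' processing notes name lumi, with no version or settings. The scanner values gave the main results and the matrix an alternative.

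The software was R 4.3.3, limma 3.58.1 and data.table (version 1.17.8). Signals were background corrected by nec using the detection p-values, offset by 16, quantile normalized and put on the log2 scale. The detection filter asked for p under 0.01 on 3 or more arrays and left 19707 probes, 16962 of them with 1 gene symbol. In the array annotation 34885 probes have 1 symbol, 18 several and 10378 none, and probes with several or none were named for no gene. The brightest kept probe stood for a gene. One mean per group was fitted over the 9 arrays together with limma (lmFit and eBayes), with Benjamini-Hochberg adjustment within each comparison. A separate fit covered all kept probes. For a probe that no array of a group detected, the fold is a lower bound (at least), for which each array of that group was set no lower than its dimmest detected probe. The median signal per array was 88.7 to 112.2, and at most 0.557% of probes held identical signals on any pair of arrays. The fit was tested on simulated data.

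The members and lists were chosen with earlier results of these data known. Named were all members, from each other list up to 5 genes called in CMa against CMp with at least a 2-fold change, Arntl and Npas2, members against their list where 5 or fewer, and the 3 most similar genes of each member. Alternatives changed the background correction, the offset, the normalization, the detection filter, the choice of probe, the source table, a replicate block, the groups fitted and each array in turn.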

Additional observations from a re-analysis of the deposited data

How the results depend on the processing

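Over 20 alternatives, 460 of 480 single-gene values kept their direction and their side of the threshold. With the looser detection filters, the replicate block and the groups compared alone, the changes equalled those of the main fit. Only the adjusted p could move there, so these alternatives do not test the direction. The number of members called was 6 for CMp and 6 for CMa against mES, 4 between the ages and 7 by the F-test, the order kept below. Leaving out each array in turn gave 6 to 6, 6 to 7, 4 to 5 and 7 to 7, and for the 13 other clock genes 9 to 11, 9 to 10 and 3 to 6, where the value of 3 (main value 5) came without CMp replicate 2. Scaling arrays to a common median, which put the median of all genes at -0.59, -0.79 and -0.20 and the share of higher calls at 34.6%, 31.0% and 35.0% instead of 47.7%, 47.8% and 50.5%, gave 5, 5 and 3. Relative to those medians all 24 values kept their sign. Without that allowance the direction turned for Cry2 and Dbp in CMp against mES (-0.12 and -0.57) and for Per1 and Cry2 in CMa against mES (-0.46 and -0.63), and Tef in CMp against mES, Per2 in CMa against mES and Tef in CMa against CMp were not called (0.28, 0.45 and 0.59). Cry2 in CMa against CMp, never called, turned to 0.0013 in the authors' matrix, where the row of the tested probe holds the undetected Cry2 probe, and stayed at -0.03 with the exchanged rows put back, an alternative chosen after seeing the data. It turned to 0.21 without CMp replicate 1, 0.025 without CMa replicate 1 and 0.036 without CMa replicate 2, and spanned -0.25 to 0.21 over the arrays left out. Dbp in CMp against mES turned to -0.0092 without CMp replicate 1 and otherwise reached 0.33. Per1 in CMa against mES was called with cyclic loess, with a replicate block, with the groups compared alone and without CMp 1, CMp 2 or CMa 1. In the matrix, where no background was subtracted here, changes were smaller, such as 0.97 for Nr1d1 in CMa against mES, with the same counts of calls. The cause of these shifts was not tested.

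Replicate numbers recur across the groups. Deviations of same-numbered arrays from their group means correlated at -0.07 to 0.39 over 9 pairs, 3 of them above 0.1. Those of differently numbered arrays correlated at -0.43 to 0.35 over 18 pairs, 4 of them above 0.1. These ranges overlap and do not settle whether the numbers pair the samples, and the main fit assumed no pairing. With the replicate block 6, 7, 4 and 7 members were called. The slide as a block was not run, since the headers name none. Arrays in groups of 3 and signals near background limit Per3, Cry1, Nr1d1 in mES and the second probes of Clock, Nr1d2 and Tef.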
